A study of Homo sapiens with 346 samples.

Results

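The genes of the mitochondrial ribosomal proteins were followed from live to methanol-fixed single cells of HCT-116 and of cells labelled HepG2. They were taken by symbol, as the rows of the gene tables named MRPL or MRPS with a number and, for a few, a letter from A to C. The rule found 77 genes of 28806 listed in HCT-116 and the same number of 29551 listed in the HepG2-labelled table. HCT-116 cells derive from a colorectal carcinoma, and the name HepG2 stands for a line from a liver tumour. Both were grown in the same medium with serum and antibiotics. Live cells were sorted and processed directly, and fixed cells of the same lines were kept in 80% methanol at low temperature for 1 week, then rehydrated and sorted. Libraries were made with Smart-seq2, a method that starts from the poly(A) tail and amplifies cDNA of whole transcripts. HCT-116 was measured in 91 live and 92 fixed cells, and the HepG2 label covered 68 live and 83 fixed cells. HCT-116 was handled in 1 experiment, whereas the cells labelled HepG2 pool 2 replicate experiments. Neither the labels nor the columns tell which of these a cell came from, so each line and treatment was handled as 1 sample, cells were not replicates of a treatment, and no p-value was computed. Errors are SDs over cells. Fixation and the later library batch cannot be told apart.

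Mitochondria keep a ribosome of their own, which translates the few messenger RNAs of the mitochondrial genome into membrane subunits of the respiratory chain and of ATP synthase. Its ribosomal RNAs are transcribed inside the organelle, whereas all of its proteins are encoded in the nucleus, made in the cytosol and imported. Names with MRPL were given to proteins of the large subunit and names with MRPS to those of the small subunit, and later structures moved some of them. By their systematic names, 50 of the 77 genes encode large-subunit proteins, 30 with a bacterial counterpart and 20 specific to mitochondria. The small subunit accounted for 26 genes, 16 with a bacterial counterpart and 10 specific to mitochondria. MRPS30 and MRPS18A carry a small-subunit name and were counted with the large subunit. MRPS36 is now placed in an enzyme complex of the citric acid cycle and was counted in neither subunit.

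The first 90 coding bases of 10 members are shown because the change from live to fixed cells followed base composition across these genes. They were read from the reference transcript of each gene (GENCODE release 44, GRCh38), the coordinates are those of the whole transcript, and each stretch starts at the ATG. Capitals mark runs of at least 6 consecutive G or C. The 5 members with the lowest ratio of fixed to live, averaged over the lines, were these.
MRPS26 (chr20:3046052-3048250, plus strand): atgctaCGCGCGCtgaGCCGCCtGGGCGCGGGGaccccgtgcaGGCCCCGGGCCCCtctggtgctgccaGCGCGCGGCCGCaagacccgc
MRPL23 (chr11:1947332-1956600, plus strand): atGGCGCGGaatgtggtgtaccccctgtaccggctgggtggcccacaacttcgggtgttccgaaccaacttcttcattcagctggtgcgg
MRPL4 (chr19:10252214-10260055, plus strand): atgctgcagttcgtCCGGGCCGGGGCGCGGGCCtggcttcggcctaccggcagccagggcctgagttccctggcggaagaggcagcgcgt
MRPL49 (chr11:65122321-65127371, plus strand): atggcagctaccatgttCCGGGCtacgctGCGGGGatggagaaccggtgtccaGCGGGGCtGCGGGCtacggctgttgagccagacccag
MRPS34 (chr16:1771895-1773134, minus strand): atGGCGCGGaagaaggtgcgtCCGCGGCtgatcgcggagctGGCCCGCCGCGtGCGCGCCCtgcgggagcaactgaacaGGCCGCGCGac
The 5 members with the highest ratio were these.
MRPL1 (chr4:77862830-77952785, plus strand): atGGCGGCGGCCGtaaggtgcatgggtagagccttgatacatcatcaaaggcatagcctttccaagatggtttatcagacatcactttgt
MRPS31 (chr13:40729128-40771190, minus strand): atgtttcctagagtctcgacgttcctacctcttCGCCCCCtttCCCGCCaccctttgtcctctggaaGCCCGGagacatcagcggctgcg
MRPS33 (chr7:141002610-141014952, minus strand): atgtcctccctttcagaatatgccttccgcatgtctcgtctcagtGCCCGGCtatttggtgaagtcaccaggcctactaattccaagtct
MRPL35 (chr2:86199457-86213790, plus strand): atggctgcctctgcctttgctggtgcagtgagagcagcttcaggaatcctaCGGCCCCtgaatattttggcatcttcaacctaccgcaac
MRPS6 (chr21:34073578-34143030, plus strand): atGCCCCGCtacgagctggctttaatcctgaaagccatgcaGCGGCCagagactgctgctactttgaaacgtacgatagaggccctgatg
These 90 bases had a median GC content of 73.3% in the 5 lowest, from 60% to 80%, and of 53.3% in the 5 highest, from 47.8% to 60%. The median over all 77 members was 63.3%. Runs of at least 6 G or C numbered 16 in the 5 lowest and 8 in the 5 highest. Every one of the 10 stretches held at least 1 run, as did 89.6% of all members, so the presence of a run did not separate them.

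Total reads per cell had a median of 2.5 M (mega reads) live and 1.8 M fixed in HCT-116, and of 2.4 M live and 2.0 M fixed in HepG2-labelled cells. For the 73 members whose transcripts could be traced in the transcript tables, the reads behind a member were fewest in MRPL53 in HCT-116, with medians over cells of 40 live and 39 fixed, and in MRPL54 in the HepG2-labelled table, with medians of 31.5 and 31. For MRPL1, MRPL23, MRPL34 and MRPS31 not all transcripts could be traced, so the reads behind these members are not known. The labelled identity was checked with marker lists. Of 17 hepatocyte markers, 8 were listed in the HepG2-labelled table and 0 of them exceeded 1 TPM (a level per transcript length, scaled to a fixed total per cell) in at least 50% of the cells, whereas 10 of 11 luminal breast markers did, against 2 of 11 in HCT-116. Those cells are therefore called HepG2-labelled throughout. In that table, a live and a fixed column held equal values and 6 fixed columns were very similar to each other, and results without them are given where they differ.

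Every member was listed in both lines and had a mean level of at least 1 TPM over all cells of each line. Mean levels of single members in live cells ran from 11.2 to 262 TPM in HCT-116, with a median of 78.4 TPM, and from 9.08 to 346 TPM in HepG2-labelled cells, with a median of 71.2 TPM. MRPL51, a mitochondria-specific large-subunit protein, was the highest in both lines, at 262 ± 90.3 TPM (SD, n = 91) in live HCT-116 cells and 346 ± 143.1 TPM (SD, n = 68) in live HepG2-labelled cells. MRPL33, another large-subunit protein, followed on the mean of both lines at 238 ± 95.6 and 241 ± 94.2 TPM. MRPL41 (159.5 ± 56.8 and 206 ± 88.7 TPM), MRPS34 (192.2 ± 78.2 and 151.6 ± 57.5 TPM) and MRPS24 (158.3 ± 49.7 and 182.3 ± 52.6 TPM) came next. In the order of mean levels within live HCT-116 cells, all 76 pairs of neighbours differed by less than the smaller of their SDs over cells. In live HepG2-labelled cells 74 of 76 pairs did, and the exceptions were MRPL51 above MRPL33 and MRPS31 (18.8 ± 10.3 TPM) above MRPL30 (10.99 ± 4.53 TPM). The 5 lowest members were MRPL19, MRPL30, MRPS25, MRPS31 and MRPS5, between 9.08 and 23.4 TPM. In live HCT-116 cells MRPL19 at 13.03 ± 4.67, MRPL30 at 12.1 ± 5.13 and MRPS25 at 11.2 ± 5.61 TPM differed by less than their SDs. In live HepG2-labelled cells MRPS25 at 23.2 ± 7.38 TPM stood above MRPL30 and MRPL19 (9.08 ± 4.19 TPM) by more than the SD of any of them. Ranked over the 77 genes, levels in live and fixed cells had a Spearman rho of 0.95 in HCT-116 and 0.97 in HepG2-labelled cells, and levels in the live cells of the 2 lines a rho of 0.79. Genes are not independent replicates, and these values are descriptions.

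The summed level of the 77 genes per live HCT-116 cell had a lowest value of 3476, a median of 7267 and a highest value of 10159 TPM. Among the fixed cells of that line they were 3036, 8428 and 12826 TPM. In live HepG2-labelled cells the sum ran from 3076 over a median of 6141 to 9876 TPM, and in fixed ones from 4833 over 8382 to 11409 TPM. The fixed cells were on average higher in both lines as deposited, with HCT-116 means of 7035 ± 1387 TPM live and 8352 ± 1795 TPM fixed, and of 6359 ± 1601 and 8174 ± 1483 TPM in HepG2-labelled cells, and the ranges overlapped widely. The difference of the means was smaller than 1 SD over cells in HCT-116 and larger than 1 SD of either group in HepG2-labelled cells. The listed cytosolic ribosomal RNA moved with the treatment at the same time. It held a mean of 255541 ± 48170 TPM live and 77845 ± 21280 TPM fixed in HCT-116, and of 55242 ± 17106 and 23336 ± 8641 TPM in HepG2-labelled cells. With ribosomal RNA left out and each cell rescaled to the same sum, the direction turned in HCT-116, with 9545 ± 1822 TPM live and 9141 ± 1911 TPM fixed. In HepG2-labelled cells it stayed, at 7648 ± 1642 and 8770 ± 1531 TPM. The deposited values of a HepG2-labelled cell also summed to less than those of an HCT-116 cell, with medians of 895442 TPM live and 961172 TPM fixed against 993455 and 991193 TPM, so the share of the total outside the listed rows differed between treatments. Their part in the change was not tested separately.

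**Figure D1:**
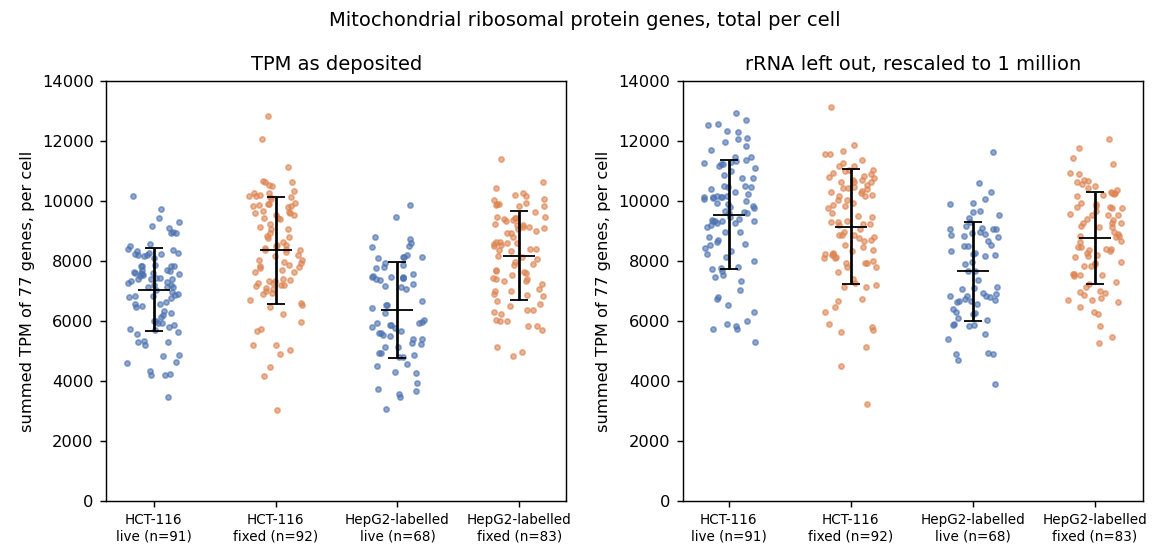
Summed TPM of the 77 genes per cell (vertical axis) for live and fixed cells of both lines, as deposited on the left and with ribosomal RNA left out on the right. Points are cells and bars the mean ± SD. As deposited the fixed groups are higher on average (8352 against 7035 TPM in HCT-116, 8174 against 6359 TPM in HepG2-labelled cells), and on the right HCT-116 turns (9141 against 9545 TPM).

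Gene by gene, change was measured as the log2 ratio of the mean TPM in fixed cells to that in live cells, and a gene was called when it passed 1.5-fold. In HCT-116, 67 of the 77 members had a higher mean in fixed cells, against 61.3% of the 11812 genes tested, those with a mean of at least 1 TPM. In HepG2-labelled cells 71 members were higher, against 60.3% of 12456 genes. With ribosomal RNA left out the counts were 41 (35.9% of all genes) and 61 (48.5%), and with each cell scaled by its median ratio over widely detected genes 53 (51% of all genes) and 60 (48%). The median log2 ratio of the members was 0.32 in HCT-116 and 0.37 in HepG2-labelled cells, beside 0.17 and 0.15 for all genes tested. Relative to all genes, the members were thus 0.16 and 0.22 higher on the log2 scale as deposited, 0.16 and 0.24 higher with ribosomal RNA left out, and 0.14 and 0.22 higher under the median ratio. Both rescalings multiply all genes of a cell by the same factor, so they could hardly move this difference and are no check on it. Single members seldom changed by much. At 1.5-fold, 2 members were higher in fixed HCT-116 cells (12.3% of all genes) and 6 in fixed HepG2-labelled cells (15.8%), while 0 were lower in either line (16.4% and 17.2%). The 2 in HCT-116 were MRPL24 (0.78) and MRPL1 (0.67), and the 6 in HepG2-labelled cells were MRPL34 (0.75), MRPL20 (0.64), MRPS18C (0.63), MRPS31 (0.62), MRPL47 (0.60) and MRPL33 (0.59). Of the cytosolic ribosomal proteins, 0 were at least 1.5-fold lower in either line. The shares of all genes were not matched to the members for level. With ribosomal RNA left out, 0 members were at least 1.5-fold higher in HCT-116 (3.86%) and in HepG2-labelled cells (9.41%), and 3 and 0 were lower (25.8% and 21.7%), the 3 being MRPL23, MRPL4 and MRPS26. When live and fixed cells were paired on total reads, 38 pairs in HepG2-labelled cells, 6 became 36 (25.1% of all genes). Pairs were taken in column order among cells with equal totals, and alike columns were not excluded. The count of 36 therefore holds for that subset of cells only. Over all cells, the ratio was higher in fixed cells in both lines for 66 members (50.6% of the 10443 genes tested in both) and lower in both for 5 (25.9%). With ribosomal RNA left out these counts were 37 (26.8%) and 12 (40.9%).

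**Figure D2:**
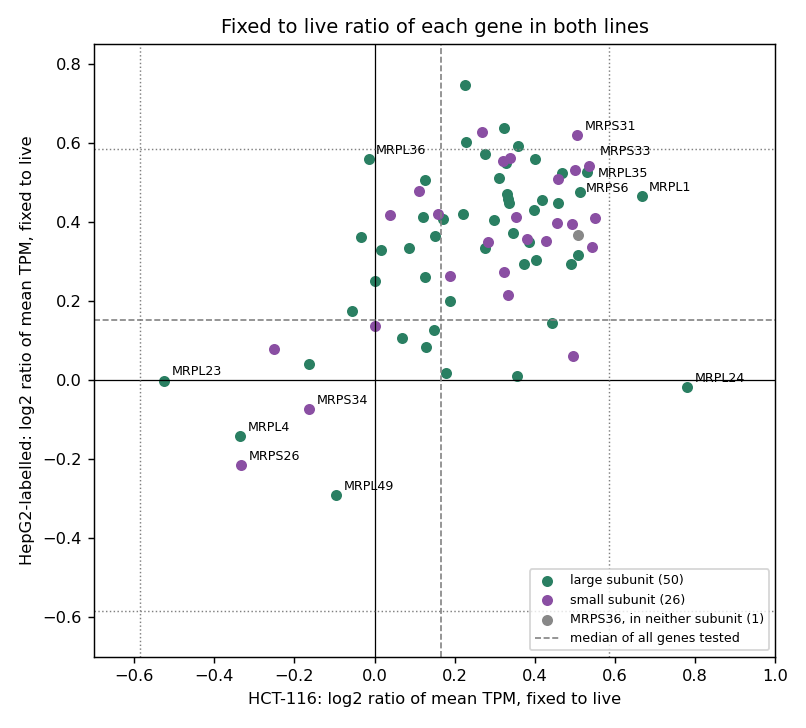
Log2 ratio of mean TPM in fixed to live cells for each of the 77 genes, HCT-116 on the horizontal and HepG2-labelled cells on the vertical axis, coloured by subunit. Dashed lines are the medians of all genes tested (0.17 and 0.15) and dotted lines 1.5-fold. Most points lie in the upper right as deposited (66 of 77), and MRPL24 is far to the right at 0.78 in HCT-116 with -0.02 in HepG2-labelled cells.

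The members with the lowest ratios included parts of both subunits. MRPS26, a mitochondria-specific small-subunit protein, had a lowest, median and highest value of 7.49, 116.6 and 239 TPM in live HCT-116 cells and of 0, 93.5 and 291 TPM in fixed ones. Its means of 122.8 ± 47.4 and 97.6 ± 46.1 TPM gave a log2 ratio of -0.33, and the cells overlapped. In HepG2-labelled cells its median was 67.7 TPM live and 54.7 TPM fixed, with a log2 ratio of -0.21. MRPL4, the counterpart of a bacterial protein near the polypeptide exit tunnel, had HCT-116 medians of 72.2 TPM live and 61.2 TPM fixed, and 64.6 and 57.99 TPM in HepG2-labelled cells, with log2 ratios of -0.33 and -0.14. MRPL49 (-0.10 and -0.29) and MRPS34 (-0.16 and -0.07) were also lower in both lines. With ribosomal RNA left out, these 4 genes had log2 ratios from -0.65 to -0.24 in the lines. That rescaling also lowered the median over all genes tested, from 0.17 to -0.15 in HCT-116 and from 0.15 to -0.02 in HepG2-labelled cells. It is therefore no check on the direction of genes already below 0.

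MRPL23, a protein at the exit of the tunnel, had the lowest ratio of all members in HCT-116. It ran from 0 over a median of 49.1 to 170 TPM in live HCT-116 cells and from 0 over 36.9 to 172.2 TPM in fixed ones, a log2 ratio of -0.53, or -0.83 with ribosomal RNA left out. In HepG2-labelled cells the means were 30.3 ± 23.9 TPM live and 30.3 ± 25.4 TPM fixed. Its share of cells detected also differed most between live and fixed HCT-116 cells. A TPM above 0 was found in 97.8% of live HCT-116 cells (exact 95% interval 92.3% to 99.7%) and 84.8% of fixed ones (75.8% to 91.4%). In HepG2-labelled cells the shares were 89.7% (79.9% to 95.8%) and 84.3% (74.7% to 91.4%). The intervals are those of Clopper and Pearson and cover counting error only. Cells are not replicates of a treatment, so the intervals are no test of a difference. Median total reads were 2.5 M live and 1.8 M fixed in HCT-116, and the part of depth in these shares was not tested. An antisense gene, MRPL23-AS1, is listed beside it at no more than 0.217 TPM on average, and reads of the 2 strands cannot be told apart in Smart-seq2.

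The members with the highest ratios were MRPL1, MRPS31, MRPS33, MRPL35 and MRPS6. MRPL1, the counterpart of the bacterial L1 stalk protein, ran from 5.21 over a median of 48.3 to 112.8 TPM in live HCT-116 cells and from 0 over 76.5 to 184.6 TPM in fixed ones. Its means of 50.2 ± 21.8 and 79.7 ± 41.02 TPM gave a log2 ratio of 0.67, and the difference exceeded the SD of the live cells but not that of the fixed. In HepG2-labelled cells its medians were 22.2 and 31.6 TPM and its log2 ratio 0.47. MRPS31, a mitochondria-specific small-subunit protein, had HCT-116 medians of 19.04 TPM live and 25.4 TPM fixed, against 18.5 and 26.1 TPM in HepG2-labelled cells, with log2 ratios of 0.51 and 0.62. A related locus, MRPS31P5, is listed at 2.10 to 4.41 TPM, and how reads were split between them is uncertain. MRPS33 (0.54 in both lines), MRPL35 (0.53 in both) and MRPS6 (0.50 and 0.53) had log2 ratios that differed little between lines. In MRPS6, 1 fixed HCT-116 cell reached 898 TPM against a median of 99.1 TPM, so its SD of 105.6 TPM there exceeds that of any other group. These 5 genes remained higher in fixed cells of both lines with ribosomal RNA left out, at log2 ratios from 0.19 to 0.45.

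Across the 77 members the log2 ratio of fixed to live was lower the higher the GC content of the reference transcript. Spearman's rho was -0.62 in HCT-116 and -0.43 in HepG2-labelled cells, beside -0.48 and -0.29 across all genes tested with a reference transcript. These are correlations across genes measured in the same libraries. The members have a median GC content of 48.04%, close to the 47.6% and 47.5% of all genes tested, and are short, with a median transcript length of 1260 bases against 2958 and 3008. All of the 20 members with the lowest GC content, 34.8% to 42.9%, had a higher mean in fixed cells in both lines, with median log2 ratios of 0.44 and 0.46. Of all genes tested in that GC range, 83.4% were higher in HCT-116 and 76.9% in HepG2-labelled cells. Of these 20 members, 17 (54.3% of all genes in the range) and 19 (62.5%) were higher with ribosomal RNA left out. Of the 20 members with the highest GC content, 54.6% to 66.7%, 12 were higher in HCT-116 (31% of all genes in the range) and 15 in HepG2-labelled cells (39.7%), with medians of 0.05 and 0.23. Of these, 4 (12.8%) and 12 (30.2%) were higher with ribosomal RNA left out, so that most of the GC-rich members were then lower in fixed HCT-116 cells. Rescaling multiplies all genes of a cell by the same factor, so it moved both ends and could hardly change the gap. The median of the GC-rich set minus that of the GC-poor set was -0.39 in HCT-116 and -0.23 in HepG2-labelled cells as deposited, and -0.39 and -0.25 with ribosomal RNA left out. With length, rho was 0.31 in HCT-116 and -0.02 in HepG2-labelled cells, beside -0.01 over all genes tested in each line. Length and GC content were themselves related among the members, with a rho of -0.52, and their parts were not separated. The reference transcript stands in for the isoforms counted, which can be shorter. With the GC content of the first 90 coding bases alone rho was -0.44 and -0.28.

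**Figure D3:**
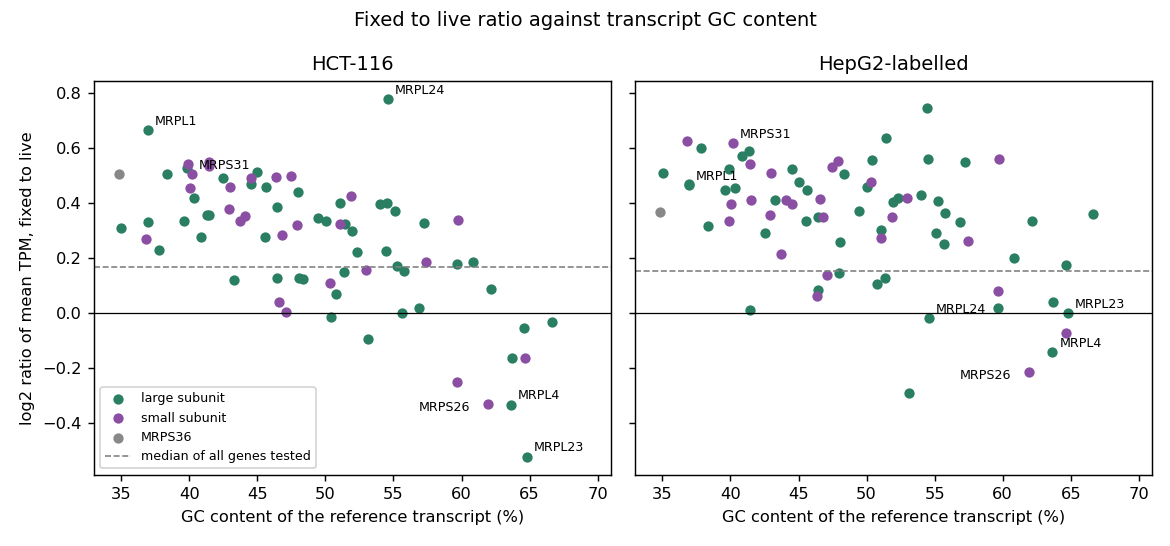
Log2 ratio of mean TPM in fixed to live cells (vertical axis) against the GC content of the reference transcript in percent (horizontal axis) for the 77 genes, HCT-116 on the left and HepG2-labelled cells on the right. The dashed line is the median of all genes tested. Points fall toward the right in both panels, with rho of -0.62 and -0.43, and MRPL24 lies above the others of like GC content in HCT-116.

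Members were detected in nearly every cell. Their mean live levels had a median of 78.4 TPM in HCT-116, against 8.16 TPM for all genes tested. In HepG2-labelled cells these medians were 71.2 and 7.48 TPM. The values for all genes given here were not matched for level. In HCT-116, 72 of 77 had a TPM above 0 in all live cells (26% of genes tested) and 44 in all fixed cells (15.1%). In HepG2-labelled cells the counts were 65 (29.4%) and 54 (20%). The share of cells was lower in fixed than in live cells for 33 members in HCT-116, against 76.7% of all genes, and for 16 in HepG2-labelled cells, against 63.6%. A higher share was found for 0 members in HCT-116 (9.1% of all genes) and 9 in HepG2-labelled cells (18.3%). The 72 and 65 members already detected in all live cells could not have a higher share. These counts are therefore bounded by that ceiling and are no result about the members. Averaged over members, the share was 99.9% live and 98.9% fixed in HCT-116 and 99.6% and 99.3% in HepG2-labelled cells, beside 80.5% and 72.2%, and 83.1% and 77.8%, for all genes tested. The lowest number of members detected in 1 cell was 75 live and 63 fixed in HCT-116, and 73 live and 72 fixed in HepG2-labelled cells. The spread between cells, as the coefficient of variation (CV, SD over mean), was larger in fixed cells for 70 members in HCT-116 (84.2% of all genes) and for 35 in HepG2-labelled cells (67%). The median CV of the members was 0.40 live and 0.45 fixed in HCT-116 and 0.42 in both groups of HepG2-labelled cells, beside 0.83 live and 1.02 fixed, and 0.80 and 0.91, for all genes tested. Cytosolic ribosomal proteins, which are far more abundant, varied less, with median CVs between 0.20 and 0.26.

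Both subunits had similar ratios of fixed to live. The median on the log2 scale was 0.29 for the 50 large-subunit and 0.34 for the 26 small-subunit genes in HCT-116, and 0.37 and 0.40 in HepG2-labelled cells. Genes with a bacterial counterpart and mitochondria-specific genes had medians of 0.32 and 0.30 in HCT-116 and of 0.41 and 0.36 in HepG2-labelled cells. Within a cell, the mean level of a large-subunit gene divided by that of a small-subunit gene was 1.12 ± 0.10 live and 1.10 ± 0.13 fixed in HCT-116, and 1.13 ± 0.12 and 1.15 ± 0.12 in HepG2-labelled cells, differences well within the spread. Across the cells of a group the summed levels of both subunits went together, with Spearman's rho in HCT-116 of 0.91 live (91 cells) and 0.89 fixed (92 cells), and in HepG2-labelled cells of 0.94 live (68 cells) and 0.87 fixed (83 cells). The sum of all members and that of the cytosolic ribosomal proteins had a rho between -0.10 and 0.18 in the same groups as deposited. With ribosomal RNA left out it ran from -0.28 in live HepG2-labelled to 0.10 in live HCT-116 cells, weak values whose sign turned in fixed HCT-116 cells (0.01 to -0.06). The 2 sums of a cell share its library and its scaling. Pairs of single members had a median rho of 0.20 to 0.35 as deposited.

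As deposited and over all cells, more members passed 1.5-fold between the lines than between the treatments, as did more of all genes tested. This order did not hold for the treatments in HepG2-labelled cells paired on total reads. The difference between lines was measured as the log2 ratio of mean TPM in HepG2-labelled to HCT-116 cells, and the tables of the lines were quantified separately. In live cells 7 members were at least 1.5-fold above HCT-116 (32.6% of 12481 genes) and 19 at least 1.5-fold below (28%). In fixed cells these counts were 13 (32.6%) and 17 (27.9%). In live and fixed cells alike, 7 members were above (21.9% of 10443 genes) and 14 below (19.7%). The median over members was -0.22 in live and -0.10 in fixed cells, beside 0.07 for all genes in both. These values are as deposited and depend on the scaling. Mean summed levels in live HCT-116 and HepG2-labelled cells were 7035 and 6359 TPM as deposited, and 9545 and 7648 TPM without ribosomal RNA. In fixed cells they were 8352 and 8174 TPM, and 9141 and 8770 TPM. Ranked over the 77 genes, the line ratios in live and fixed cells had a rho of 0.93 and the same sign for 71 genes (84.9% of all genes tested in both lines). For the ratio of fixed to live, rho between the lines was 0.35, with the same sign for 71 genes (76.5%) as deposited and for 49 (67.7%) with ribosomal RNA left out.

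**Figure D4:**
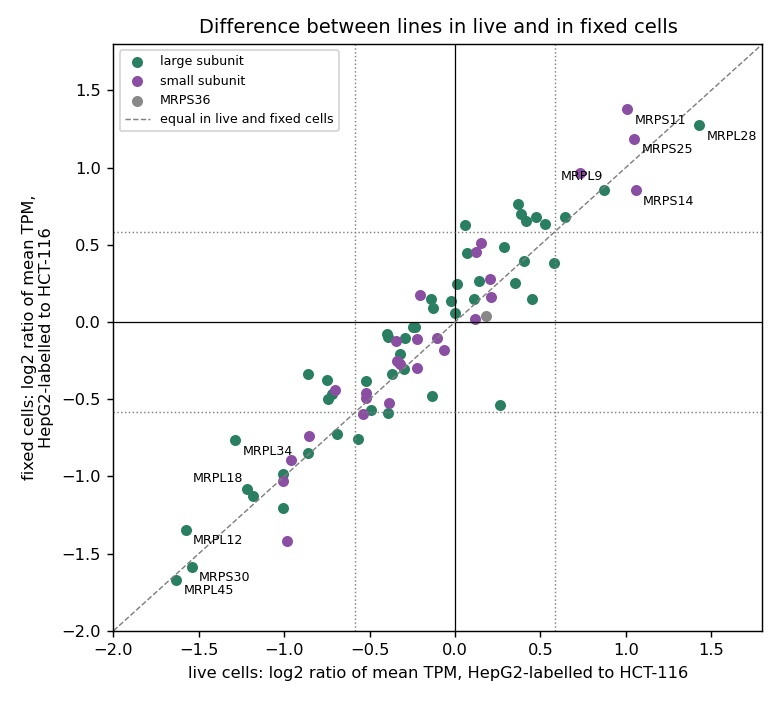
Log2 ratio of mean TPM in HepG2-labelled to HCT-116 cells for each of the 77 genes, live cells on the horizontal and fixed cells on the vertical axis, coloured by subunit. The dashed line marks equal values and dotted lines 1.5-fold. Points follow the dashed line (rho 0.93), from MRPL45 at -1.63 in live cells to MRPL28 at 1.43.

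Of the members lower in HepG2-labelled cells, MRPL45, MRPL12 and MRPS30 stood farthest out. MRPL45 (chr17:38297168-38323211, plus strand), a mitochondria-specific large-subunit protein near the tunnel exit, ran from 17.3 over a median of 63.4 to 172.2 TPM in live HCT-116 cells and from 0 over 19.7 to 83.7 TPM in live HepG2-labelled cells. The log2 ratio between lines was -1.63 in live and -1.67 in fixed cells. A related locus, MRPL45P2, is listed at 2.55 to 3.74 TPM, and the split of reads between them is uncertain. MRPL12 (chr17:81703367-81707517, plus strand), the stalk protein of the large subunit, which is also known to bind the mitochondrial RNA polymerase, ran from 75.1 over a median of 246 to 545 TPM in live HCT-116 cells. In live HepG2-labelled cells it ran from 23.3 over 81.9 to 166.6 TPM, a log2 ratio of -1.58, and in fixed cells the ratio was -1.35. MRPS30 (chr5:44808947-44815514, plus strand) had medians of 68.95 and 25.7 TPM in live and of 76.03 and 27.2 TPM in fixed cells, with log2 ratios of -1.54 and -1.58. The means of all 3 differed by more than the SD of either group, although single cells overlapped. MRPL34 (-1.29 live, -0.77 fixed) and MRPL18 (-1.22 and -1.08) followed.

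In the other direction, MRPL28 (chr16:366969-370538, minus strand), a large-subunit protein with a bacterial counterpart, ran from 0 over a median of 39.8 to 95.2 TPM in live HCT-116 cells and from 35.8 over 116.7 to 234 TPM in live HepG2-labelled cells. Its log2 ratio was 1.43 in live and 1.27 in fixed cells, where the medians were 46.4 and 112.5 TPM. Its means of 43.7 ± 21.97 and 117.8 ± 43.5 TPM in live cells differed by more than the SD of either group, with overlap of single cells. The small-subunit genes MRPS14 (1.06 live, 0.85 fixed), MRPS25 (1.05 and 1.19) and MRPS11 (1.01 and 1.38) and the large-subunit gene MRPL9 (0.87 and 0.85) were also higher in HepG2-labelled cells. The ratios of fixed to live of the genes named for their line difference were smaller in size than that difference for each of them, though by little in MRPL34, whose log2 ratio of fixed to live of 0.75 in HepG2-labelled cells came close to its line ratio of -0.77 in fixed cells, with 0.23 in HCT-116. MRPL45 had 0.51 and 0.48, MRPS14 0.54 and 0.34, and MRPS11 0.11 and 0.48. MRPS25 had a log2 ratio of fixed to live of 0.00 in HCT-116 and 0.14 in HepG2-labelled cells, and MRPL12 of -0.06 and 0.17, signs that for MRPS25 turned in both lines with ribosomal RNA left out (-0.31 and -0.04). MRPL28 had ratios of 0.18 and 0.02, which also turned (-0.13 and -0.15).

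**Figure D5:**
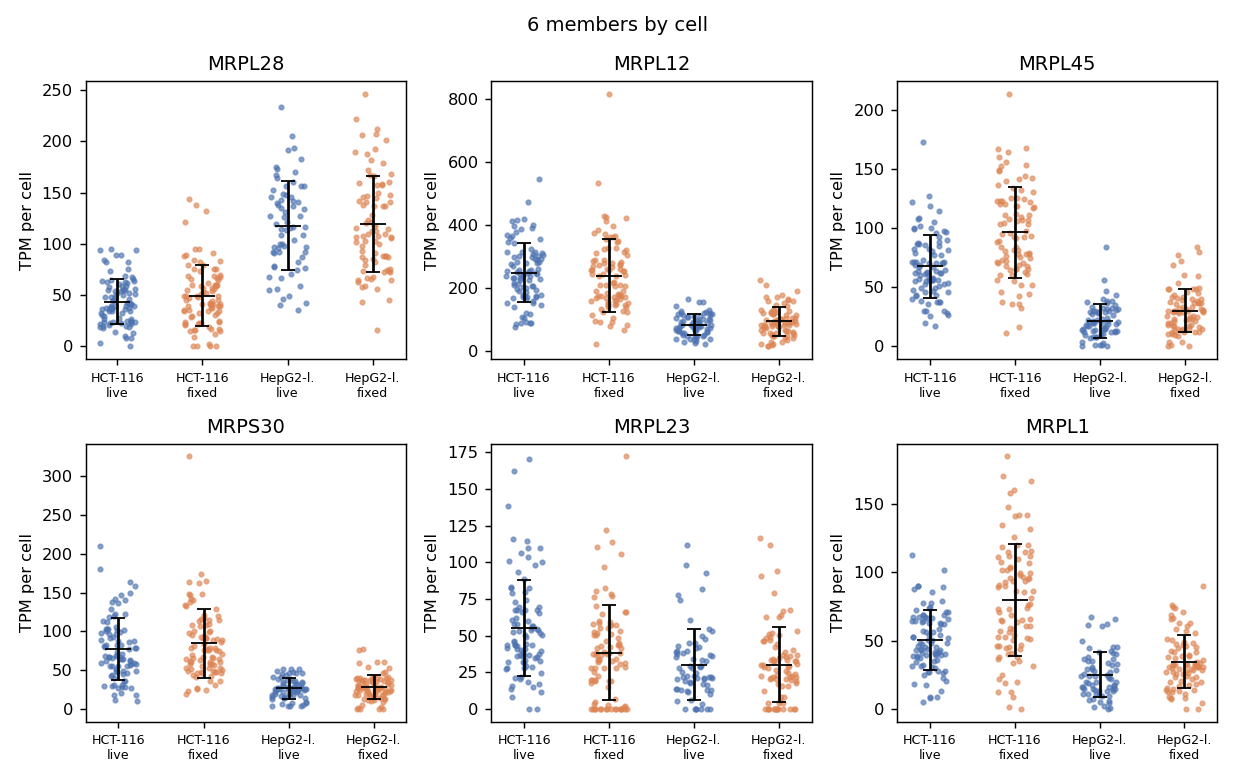
TPM per cell (vertical axis) of 6 members in live (blue) and fixed (orange) cells of HCT-116 and HepG2-labelled cells (HepG2-l.), with the mean ± SD. MRPL28 is higher and MRPL12, MRPL45 and MRPS30 lower in HepG2-labelled cells in both treatments, and MRPL23 and MRPL1 had the lowest ratio (-0.53) and a high ratio (0.67) of fixed to live in HCT-116 as deposited.

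The paralogs MRPS18A, MRPS18B and MRPS18C descend from the same bacterial protein and occupy different places in the mitochondrial ribosome. In live HCT-116 cells their medians were 56.2, 104.3 and 69.4 TPM, and in live HepG2-labelled cells 49.2, 92.8 and 70 TPM. MRPS18B was the highest of them in both lines, and its mean exceeded that of MRPS18C by less than its SD over cells. Fixed to live, their log2 ratios in HCT-116 were 0.33, 0.43 and 0.27, those in HepG2-labelled cells 0.55, 0.35 and 0.63, and with ribosomal RNA left out that of MRPS18C in HCT-116 turned to -0.02. MRPS36, which is no ribosomal subunit by present naming, had HCT-116 medians of 34.4 TPM live and 46.2 TPM fixed, against 39.6 and 50.5 TPM in HepG2-labelled cells. Its log2 ratios of 0.51 and 0.37 lay in the range of the ribosomal members.

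Other genes of mitochondrial gene expression, listed separately, were set beside the members. Of all genes tested, 61.3% were higher in fixed HCT-116 cells and 60.3% in fixed HepG2-labelled cells, or 35.9% and 48.5% with ribosomal RNA left out. At 1.5-fold, 12.3% and 15.8% of all genes were higher as deposited and 16.4% and 17.2% lower. The cytosolic ribosomal proteins had median log2 ratios of fixed to live of 0.42 in HCT-116 and 0.38 in HepG2-labelled cells. For mitochondrial ribosomal proteins with other names the medians over 5 genes were 0.28 and 0.34, with 3 and 5 genes higher in fixed cells (2 and 4 with ribosomal RNA left out) and 0 past 1.5-fold. DAP3, a GTP-binding protein of the small subunit, had the ratio of this list farthest from 0 in HCT-116 at 0.57, and CHCHD1 in HepG2-labelled cells at 0.50. Of 12 translation factors, 10 were higher in fixed cells in each line (7 and 9 with ribosomal RNA left out), with medians of 0.32 and 0.33. The ratio farthest from 0 was that of PDF, the deformylase of newly made mitochondrial proteins, at -0.88 in HCT-116, and that of MTRF1, a release factor, at 0.65 in HepG2-labelled cells. Of the 22 assembly factors, 12 were higher and 10 lower in HCT-116, and 13 and 9 in HepG2-labelled cells, near the shares of all genes. With ribosomal RNA left out, 8 and 9 of them were higher. As deposited the medians were 0.05 and 0.04. Log2 ratios of the assembly factors ran from -1.10 to 0.63 in HCT-116 and from -1.48 to 0.54 in HepG2-labelled cells. MRM1, a ribosomal RNA methyltransferase, was the lowest in both lines. Among 8 genes of mitochondrial RNA synthesis and stability the medians were 0.30 and 0.29. POLRMT, the mitochondrial RNA polymerase, was the exception, at 24.6 ± 12.9 TPM live and 4.08 ± 5.08 TPM fixed in HCT-116, and 7.10 ± 5.04 and 1.96 ± 3.57 TPM in HepG2-labelled cells, log2 ratios of -2.59 and -1.86. Among 17 mitochondrial tRNA synthetases the medians were 0.25 and 0.03, and AARS2, the alanyl-tRNA synthetase, had -2.28 and -1.86. As deposited, no member of the ribosomal protein set had a ratio as low as these, the lowest being -0.53 (-0.83 with ribosomal RNA left out). The lists were not matched to the members for level or GC content. Median live levels in HCT-116 and HepG2-labelled cells were 30.5 and 25.9 TPM for the RNA synthesis and stability genes. They were 10.3 and 15.3 TPM for the synthetases, against 78.4 and 71.2 TPM for the members.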

How the data were processed

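Single-cell Smart-seq2 libraries were quantified by the authors with kallisto (version 0.46.0 in the submitters' processing notes, build GRCh38) and summed to genes with tximport. The deposited gene values are TPM. The deposited transcript values, named TPM, are CPM, since they are not divided by length. They gave total reads per cell, to the nearest 0.1 M reads, from the step between values, and the reads behind a member, for 73 of 77 members. Column numbers did not match single labels, so columns were assigned to groups.

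Members and lists were chosen with earlier results of these data known. Genes with a mean of at least 1 TPM over the cells of a line were tested, and change was the log2 ratio of group means, called at 1.5-fold. Alternatives were ribosomal RNA left out with cells rescaled to the same sum, median ratio scaling over genes in at least 90% of cells, pseudocounts of 1 and 0.1, medians, cells paired on total reads, other filters and thresholds, reads thinned to 500000 per cell, and alike columns left out. Named members were the 5 highest and 5 lowest by live level, by ratio of fixed to live and by ratio between lines, the MRPS18 paralogs, MRPS30 and MRPS36, and the ratio farthest from 0 of each other list. MRPL20, MRPL24, MRPL36 and MRPL47 were named after their values were seen. GC content and length are those of the GENCODE 44 reference transcript, found for 89.0% and 87.1% of genes tested. Labelled cells with no column were not analysed here. No test was run, because HCT-116 had 1 experiment and HepG2-labelled cells could not be assigned to either of their 2, so each line and treatment was handled as 1 sample. The computations were tested on simulated data. Python 3.11.15, numpy 2.4.6, pandas 2.3.3, scipy 1.17.1 and matplotlib 3.10.9 were used.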

Additional observations from a re-analysis of the deposited data

Results flagged for a closer look

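In 3 members the ratio of fixed to live pointed one way in HCT-116 and the other way in HepG2-labelled cells, as deposited and under both rescalings, against 12.8% of all genes tested in both lines. The difference between the lines was not tested. MRPL24 had log2 ratios of 0.78 in HCT-116 and -0.02 in HepG2-labelled cells, a difference of -0.80, with ribosomal RNA left out 0.48 and -0.18. Its medians were 68.2 TPM live and 112.9 TPM fixed in HCT-116 and 76.3 and 79.6 TPM in HepG2-labelled cells, so that on medians the fixed cells were higher in both lines and the directions did not differ. MRPL36 had -0.01 and 0.56, a difference of 0.57, with medians of 142.8 and 142.4 TPM in HCT-116 and 144.5 and 211 TPM in HepG2-labelled cells. MRPL41 had -0.03 and 0.36, a difference of 0.40, with medians of 165.2 and 150.2 TPM in HCT-116 and 215 and 269 TPM in HepG2-labelled cells.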

How the results depend on the processing

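Without ribosomal RNA, the mean summed level of the members in HCT-116 reversed from a log2 ratio of fixed to live of 0.25 to -0.063, and to -0.018 with cells also paired by reads, a setting chosen after the data had been seen. The count of members higher in fixed HCT-116 cells moved from 67 (61.3% of all genes) to 41 under both settings (35.9% of all genes without ribosomal RNA). Live summed levels moved to 9545 TPM without ribosomal RNA in HCT-116 and to 8335 TPM under the median ratio in HepG2-labelled cells. Members at least 1.5-fold higher in fixed HCT-116 cells, 2 as deposited, numbered 0 without ribosomal RNA and at 2-fold, 1 under the median ratio, either pseudocount and pairing without ribosomal RNA, and 4 under pairing. Those at least 1.5-fold lower, 0 as deposited, numbered 3 without ribosomal RNA, 1 under the median ratio and a pseudocount of 1, and 2 with a pseudocount of 0.1 and with pairing without ribosomal RNA. In HepG2-labelled cells the 6 higher became 0 without ribosomal RNA, under the median ratio and at 2-fold, and 36 under pairing. Members at least 1.5-fold above HCT-116 in live HepG2-labelled cells went from 7 to 11 under the median ratio. For the 1.5-fold counts under the median ratio, the pseudocounts and pairing in HCT-116, and for those at 2-fold, the share of all genes was not computed. Whether the members or all genes moved in these settings cannot be told. The median of the members relative to all genes tested stayed above 0 under every setting tried, from 0.14 to 0.41 in HCT-116 and from 0.20 to 0.43 in HepG2-labelled cells, and the GC gap stayed below 0, from -0.40 to -0.36 and from -0.34 to -0.22. The rescalings among these settings multiply all genes of a cell by the same factor. They could hardly move either value and are no check on them. With reads thinned to 500000 per cell, the mean share of cells detected lay between 98.8% and 99.8%. This share covers only the 73 members with traced reads, and 3 fixed HCT-116 cells were left out. Among the members not covered is MRPL23, detected in 84.8% of fixed HCT-116 cells without thinning. The shares given above without thinning cover all members and cells. The 2 sets of shares are therefore not comparable, and whether detection depends on depth cannot be told from them. The causes of these shifts were not tested. No paired analysis was possible because the live and fixed cells of a line share no label number, the columns follow a numbering of their own, and no test was run. The fewest reads behind a traced member were about 31 per cell, for MRPL54 in HepG2-labelled cells. The members with the fewest reads are not those with the lowest TPM, and whether depth limits them was not tested. No difference between treatments has a replicate check, since cells could not be assigned to the 2 replicate experiments of the HepG2-labelled cells and HCT-116 had 1.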
